A study of Homo sapiens with 15 samples.

Results

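Ion channels are membrane proteins that let ions flow down their gradients. The genes described here were chosen by name from the authors' deposited table: protein-coding rows whose symbols belong to the potassium (KCN), sodium (SCN), calcium (CACN), chloride (CLCN, CLIC), TRPC, TRPM and TRPV, P2X, GABA receptor, ionotropic glutamate receptor or nicotinic receptor families, leaving out SCNN1A and KCNA5. This gave 59 genes of 11230 listed rows, of which 7447 are protein-coding. Of the 59, 48 were counted as pore-forming and 11 as auxiliary subunits. The 48 include CLCN3, CLCN4 and CLCN5, which encode chloride/proton exchangers. The GENCODE 29 annotation holds 236 genes that fit the name pattern, and 61 of these are in the table, the 2 left-out genes included. No CLIC gene is among the members. Each row of the authors' deposited table has its lowest adjusted p over the 4 comparisons below 0.1, so channel genes outside it were not analysed here.

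The study used HEK293FT cells, a fast-growing line derived from human embryonic kidney that carries the SV40 large T antigen. CRISPR activation was applied with 5 guide RNAs per target, the activator MS2-p65-HSF1 and dCas9-VP64, to raise 1 of 4 TrEx long non-coding RNAs, which are expressed for a short time as cortical neurons form. The guides lay 50 to 450 bp upstream of the target. Puromycin at 2 µg/mL was given from 24 hours, and polyA RNA was taken at 48 hours. The control group received 5 non-targeting guides and the same activators. The groups titled trex0108 and trex4039 are labelled as targeting TrEx108 and TrEx4039. The group titled trex5008 is labelled as targeting TrEx8168, and the group titled trex8168 as targeting TrEx5008; groups are called here by their titles, and the conflict was not settled. Each of the 5 groups had 3 libraries of 1 cell line. The labels call them biological triplicates without saying how the cultures were separated, so p-values measure the spread between these libraries. Only the authors' group means were used, so no SD is given, and the depth of single libraries is unknown. The columns do not pair TrEx numbers with loci, so the level of the targeted RNAs was not analysed here. In bulk RNA, fewer cells that express a gene and less RNA per cell cannot be told apart.

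Voltage-gated potassium, sodium and calcium channels open when the membrane depolarises and shape the action potentials of neurons and muscle. Ligand-gated channels (P2X, GABA, glutamate and nicotinic receptors) open when a transmitter or ATP binds, and TRP channels respond to calcium, lipids, temperature or osmotic stress. Auxiliary subunits carry no pore and change the traffic or gating of the channels they join. Kidney-derived HEK cells are widely used to study transfected channels because their own voltage-gated currents are small.

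Over all 15 libraries the channel genes had a lower median count than the listed protein-coding rows. The median of their deposited means was 321.2 normalised counts, against 1524 for all listed protein-coding rows. A mean of at least 1000 was reached by 11 of the 59 genes, and 6 had a mean under 50. These counts are not corrected for transcript length, so levels in the control cells were compared per kb of the longest protein-coding transcript. On that scale the highest control levels were those of CLCN3, a chloride/proton exchanger of endosomes, at 858 normalised counts per kb, and CHRNA5, an accessory subunit of nicotinic receptors, at 660. CACNB3 and CACNB1, cytoplasmic subunits of voltage-gated calcium channels, followed at 505 and 390 per kb. KCNG1, an electrically silent potassium channel subunit, had 358 per kb. The lowest were GRIN2B, an NMDA receptor subunit, at 1.22 per kb and KCNT1, a sodium-activated potassium channel, at 1.52 per kb. The listed row of KCNT1 covers only chr9:138679748-138681029 (hg19), while its count was divided by the length of the whole transcript. Its place among the lowest is therefore uncertain.

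**Figure D1:**
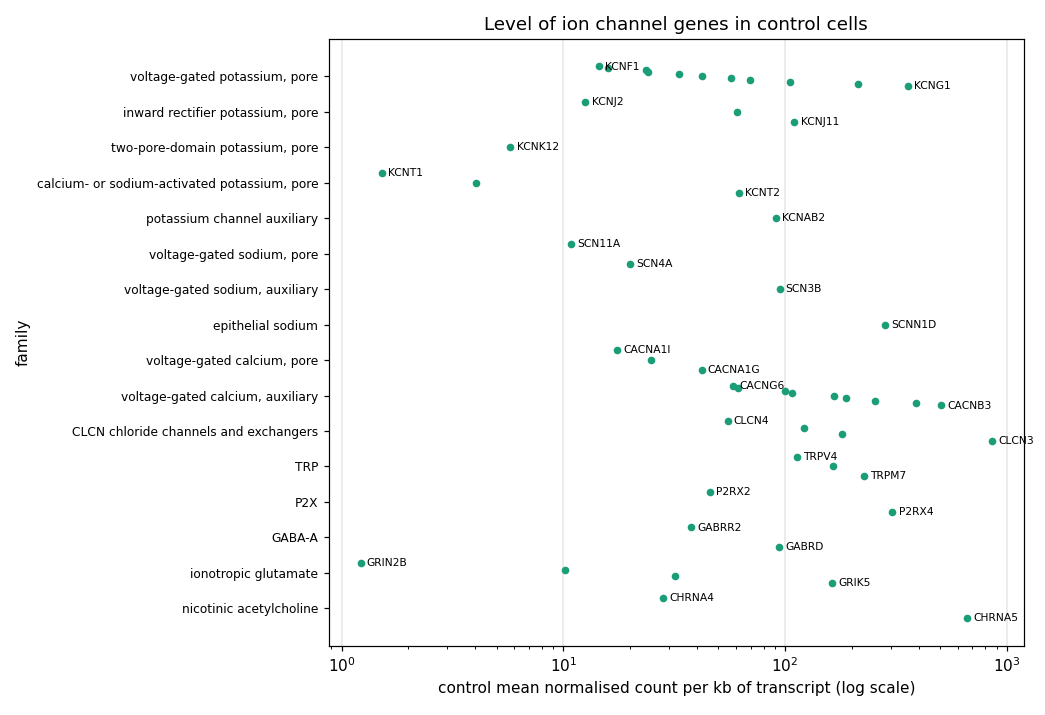
Control mean normalised count per kb of the longest protein-coding transcript (x axis, log scale) for 52 ion channel genes, arranged by family (y axis), with the lowest and the highest gene plotted for each family named. Each point is 1 gene and the authors' mean of 3 libraries; CLCN3 is farthest right at 858 per kb and GRIN2B farthest left at 1.22.

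The channel genes changed in different numbers in the 4 target groups, and no called change reached 1 in size as a deposited log2 fold change, which is drawn toward 0. By the group means alone, KCNN4 in trex0108 stood at 267% of control and P2RX2 in trex4039 at 46.9%, the 2 called values past a factor of 2. A gene is said to have risen or fallen where the adjusted p in the authors' deposited table is under 0.05. In trex0108, 4 of 59 rose (6.78%) and 0 fell, where 5.52% of the listed protein-coding rows rose and 0.228% fell. In trex4039, 14 of 59 rose (23.7%) and 24 fell (40.7%), against 41.6% and 30.9% of the protein-coding rows. In trex5008, 7 of 57 with an adjusted p rose (12.3%) and 28 fell (49.1%), against 32.4% and 24.6%. In trex8168, 2 of 58 rose (3.45%) and 4 fell (6.90%), against 16.6% and 4.57%. The share of channel genes that rose was thus below that of all listed protein-coding rows in trex4039, trex5008 and trex8168. The share that fell was above that of these rows in trex4039 and trex5008. In trex8168 the share that fell was 6.90% against 4.57%, which rests on 4 genes. In trex0108 the share that rose was near that of the same rows. The shares are descriptions and were not tested against each other. The 0 falls in trex0108 remained 0 at the authors' own threshold of 0.1; unadjusted p-values were not used here.

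The median deposited log2 fold change of the 59 genes was 0.01 in trex0108, -0.23 in trex4039, -0.20 in trex5008 and -0.06 in trex8168. Over all listed protein-coding rows it was 0.03, 0.09, 0.05 and 0.06. All 4 comparisons use the same control libraries, so their values are not independent of each other. Among the 5 group means, trex4039 was the lowest for 22 of the channel genes (37.3%) and trex5008 for 16 (27.1%), and control was the highest for 22 (37.3%). Over the listed protein-coding rows these shares were 31.3%, 13.4% and 19.3%. The ratio of the highest to the lowest group mean had a median of 1.41 and stayed under 1.5 in 37 genes. It was 2 or more in 6 genes, among them KCNN4, GRIK5, KCNT1, KCNF1 and P2RX2, with a highest ratio of 2.67 for KCNN4.

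**Figure D2:**
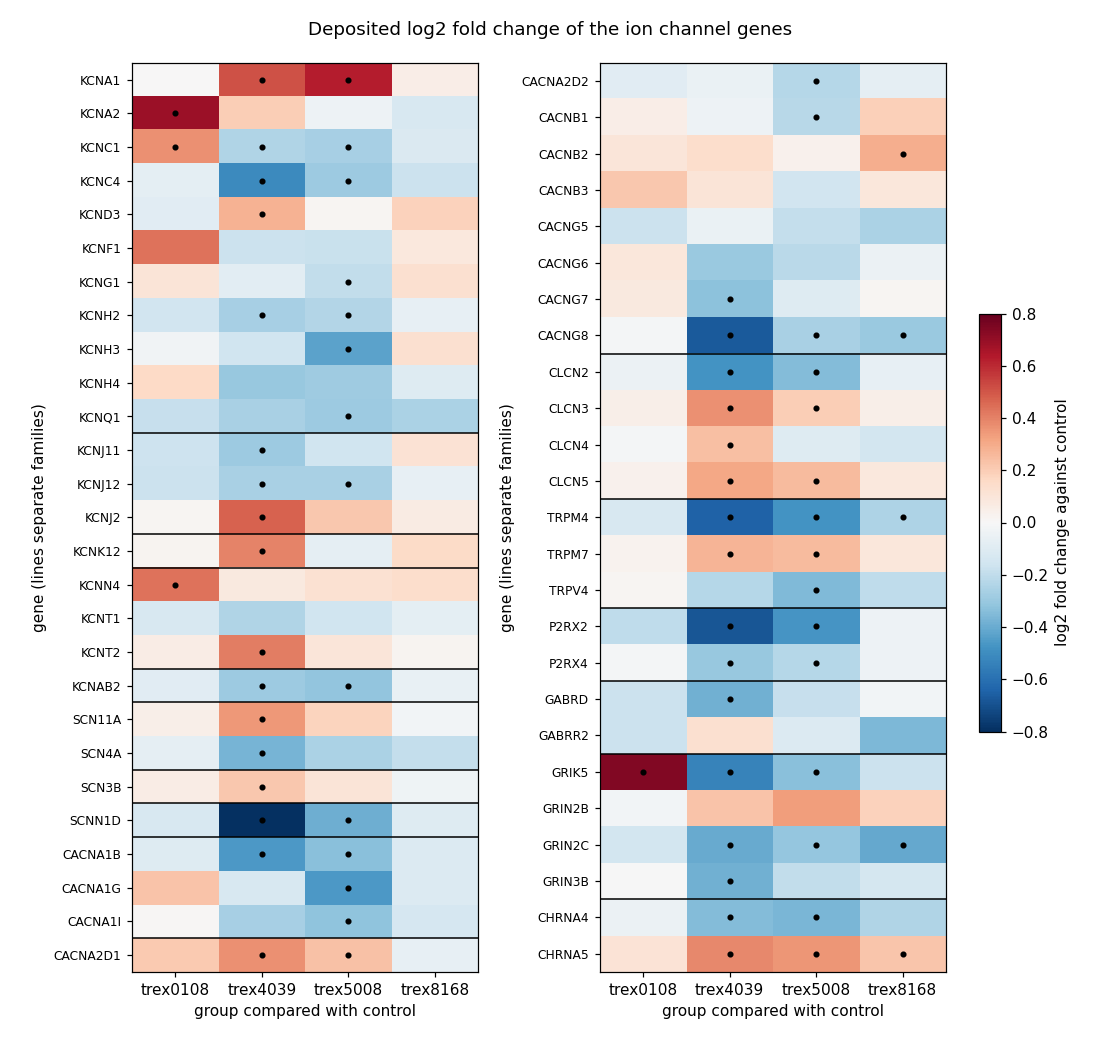
Deposited log2 fold change against control (colour scale) for 52 of the 59 ion channel genes (rows, grouped by family) in the 4 target groups (columns); a dot marks an adjusted p under 0.05. Blue (lower) rows prevail in the trex4039 and trex5008 columns, and the trex0108 column has 4 dots, for GRIK5, KCNA2, KCNC1 and KCNN4.

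The 4 genes that rose in trex0108 were GRIK5, KCNA2, KCNC1 and KCNN4. GRIK5 encodes a high-affinity subunit of kainate-type glutamate receptors and lies at chr19:42502138-42580107 (hg19). Its deposited means were 570.3 normalised counts in control, 994.5 in trex0108, 377.0 in trex4039, 442.4 in trex5008 and 500.7 in trex8168. Only trex0108 stood above control, at 174% of it. The log2 fold change in the authors' deposited table was 0.74 in trex0108 (adjusted p 2.26e-18), -0.53 in trex4039 (adjusted p 3.63e-09), -0.33 in trex5008 (adjusted p 0.000479) and -0.17 in trex8168 (adjusted p 0.166). GRIK5 therefore rose in trex0108 and fell in trex4039 and trex5008, all against the same control.

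KCNA2, a delayed-rectifier potassium channel of axons (chr1:111135986-111174085), had means of 280.9 in control, 478.6 in trex0108, 327.1 in trex4039, 271.5 in trex5008 and 251.1 in trex8168. The trex0108 mean was 170% of control, and the other groups lay on both sides of it. The authors' deposited table gives KCNA2 a log2 fold change of 0.69 in trex0108 (adjusted p 1.1e-11) and 0.19 in trex4039 (adjusted p 0.101). KCNC1, a potassium channel of fast-spiking interneurons (chr11:17756344-17809357), had 834.4, 1098, 693.2, 681.2 and 766.2 in the same order of groups. It rose by 0.36 on the log2 scale in trex0108 (adjusted p 0.000336 in the authors' deposited table). It fell in trex4039 (-0.24, adjusted p 0.0102) and in trex5008 (-0.27, adjusted p 0.00483), again from the authors' deposited table. With GRIK5, KCNC1 was 1 of the 2 channel genes called in both directions. KCNN4, a calcium-activated potassium channel of lymphocytes and epithelia (chr19:44265695-44290019), was scarce. Its means were 9.08 in control, 24.28 in trex0108, 11.16 in trex4039, 12.89 in trex5008 and 13.48 in trex8168. The authors' deposited table gives it 0.43 on the log2 scale in trex0108 (adjusted p 0.0385), the call nearest to the threshold of the 4.

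The stretches upstream of these genes are shown because the genes moved together in trex0108. They are from RefSeq (GRCh38.p14), 1 start site per gene, 5′ to 3′ in the direction of the gene, without the bases that a GENCODE 29 exon covers. Capitals mark the GC box, searched as GGGCGG and CCGCCC so that both strands are read. KCNN4 is named only, since an exon covers its whole window of 250 bases. The stretch of GRIK5 is chr19:42070207-42070365 on the minus strand, that of KCNA2 is chr1:110631475-110631690 on the minus strand, and that of KCNC1 is chr11:17734531-17734773 on the plus strand.
GRIK5: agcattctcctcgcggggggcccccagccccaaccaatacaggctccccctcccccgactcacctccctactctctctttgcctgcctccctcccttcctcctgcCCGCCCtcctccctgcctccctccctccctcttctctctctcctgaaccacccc
KCNA2: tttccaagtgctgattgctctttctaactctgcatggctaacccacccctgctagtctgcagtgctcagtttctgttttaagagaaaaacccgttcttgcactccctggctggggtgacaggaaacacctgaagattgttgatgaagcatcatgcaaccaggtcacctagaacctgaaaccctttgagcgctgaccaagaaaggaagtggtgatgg
KCNC1: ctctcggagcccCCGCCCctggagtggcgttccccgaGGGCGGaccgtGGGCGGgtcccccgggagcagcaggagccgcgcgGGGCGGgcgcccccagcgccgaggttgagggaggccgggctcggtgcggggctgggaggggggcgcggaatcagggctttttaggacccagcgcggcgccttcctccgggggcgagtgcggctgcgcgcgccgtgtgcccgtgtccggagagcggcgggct

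The 3 stretches differ in this motif: that of KCNC1 holds 4 GC boxes, that of GRIK5 holds 1 and that of KCNA2 holds 0. Over the whole window of 250 bases upstream, GC content was 79.2% for KCNC1, 66.8% for GRIK5, 60% for KCNN4 and 48.8% for KCNA2. An upstream window was matched for 32 of the 59 channel genes, and 22 of these held a GC box (68.8%). The share was 67.8% of 4703 listed protein-coding genes and 56.9% of 14868 protein-coding genes with a window. A TATA box, searched as TATAAA and TTTATA, was in 2 of the 32 windows (6.25%), against 5.23% and 8.99%. These matches describe letters and were not tied to the expression values.

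Within 100 kb of the 4 genes lie 14 other listed rows, of which 1 was called in trex0108. A non-coding locus that overlaps GRIK5 had a log2 fold change of 0.08 in trex0108, which was not called. ZNF283 overlaps KCNN4 and had a log2 fold change of 0.01, also not called, in the authors' deposited table. A locus of unannotated type within KCNA2 went from a mean of 2.33 in control to 11.7 in trex0108, and rose by 0.34 on the log2 scale (adjusted p 0.00548, authors' deposited table). How strand was treated in counting is not known here, so its reads and those of KCNA2 cannot be told apart.

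**Figure D3:**
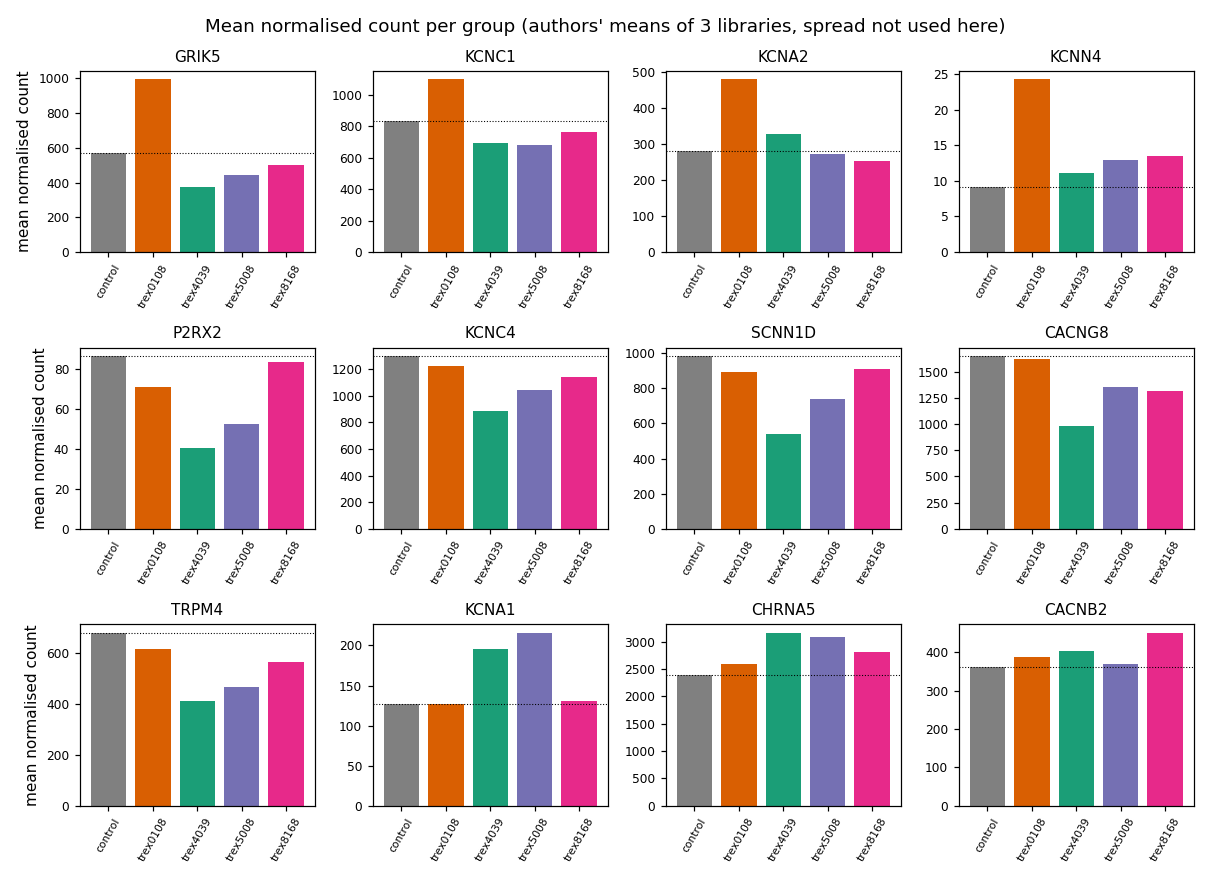
Authors' mean normalised count (y axis, from 0) in the 5 groups (x axis) for 12 ion channel genes; each bar is a mean of 3 libraries with no error bar, and the dotted line is the control mean. GRIK5, KCNC1, KCNA2 and KCNN4 are highest in trex0108, P2RX2, KCNC4, SCNN1D, CACNG8 and TRPM4 are lowest in trex4039, and CACNB2 is highest in trex8168 at 450.3.

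Of 14 listed pore-forming subunits of voltage-gated potassium channels, 5 fell and 2 rose in trex4039. In trex5008 8 fell and 1 rose, and in trex8168 1 fell. Over all listed protein-coding rows, 30.9% fell and 41.6% rose in trex4039, and 24.6% fell and 32.4% rose in trex5008. In trex8168 4.57% of them fell and 16.6% rose. The counts of this and the later families were not tested against these shares. KCNC1 and KCNC4, whose channels repolarise fast-spiking neurons, fell in both trex4039 and trex5008. KCNC4 had means of 1297 in control, 1223 in trex0108, 888.3 in trex4039, 1046 in trex5008 and 1141 in trex8168, with all target groups below control. Its log2 fold change was -0.51 in trex4039 (adjusted p 6.59e-11) and -0.29 in trex5008 (adjusted p 0.000475), while its adjusted p in trex8168 was 0.0943 in the authors' deposited table.

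KCNA1, which forms channels of axons alone or with KCNA2, moved the other way from KCNC1 and KCNC4. Its means were 126.5 in control, 126.6 in trex0108, 195.5 in trex4039, 215.5 in trex5008 and 131.1 in trex8168. Only trex4039 and trex5008 were called, and the log2 fold changes were 0.51 (adjusted p 2.78e-05) and 0.63 (adjusted p 2.93e-07) in the authors' deposited table. These were the highest values of any channel gene in those comparisons. KCND3, an A-type channel, rose in trex4039 from a mean of 246.9 to 310.5 (log2 fold change 0.28, adjusted p 0.0197, authors' deposited table).

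KCNH2, the hERG channel of cardiac repolarisation, fell in trex4039 and trex5008, with means of 916.2 in control, 817.1 in trex0108, 750.8 in trex4039, 769.6 in trex5008 and 869.9 in trex8168. KCNQ1, the channel of the slow delayed rectifier current in heart, fell in trex5008, from 137.6 to 105.7, with adjusted p 0.0482 from the authors' deposited table. KCNH3 fell in trex5008, from 219.9 to 149.4 (log2 fold change -0.43, adjusted p 0.00154, authors' deposited table). KCNG1, which changes the channels it joins, fell there from 791.3 to 682.8. The silent subunit KCNF1 and the channel KCNH4 were called in no comparison. KCNF1 had 33.1 in control and 57.61 in trex0108 (adjusted p 0.0862, authors' deposited table), and KCNH4 had 69.02 to 110.5 over the groups.

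The other potassium channel genes moved in both directions in trex4039. KCNJ2, the inward rectifier that holds the resting potential in heart and muscle, rose from a mean of 67.86 in control to 109.0 (log2 fold change 0.47, adjusted p 0.00167, authors' deposited table). KCNJ12, a close relative, fell in trex4039 and trex5008, from 329.8 to 268.2 and 267.3. KCNJ11, the pore of ATP-sensitive channels, fell in trex4039 from 308.9 to 245.2 and had 271.2 in trex5008, which was not called. KCNK12, a member of the leak channel family, rose in trex4039 from 35.96 to 58.26 (log2 fold change 0.39, adjusted p 0.0186, authors' deposited table). KCNT2, a sodium-activated channel, rose in trex4039 from 365.6 to 500.1 (log2 fold change 0.41, adjusted p 1.82e-05, authors' deposited table). Its relative KCNT1 was called in none. KCNAB2, the 1 auxiliary potassium subunit listed, fell in trex4039 and trex5008, from 387.5 to 308.8 and 302.1.

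Among sodium channels, SCNN1D, the delta subunit of the epithelial sodium channel (chr1:1209378-1227407), showed the deepest fall of all 59 genes. Its means were 982.2 in control, 891.5 in trex0108, 538.7 in trex4039, 735.9 in trex5008 and 910.2 in trex8168. All 4 target groups lay below control, at 54.9% of it in trex4039 and 74.9% in trex5008. On the log2 scale the authors' deposited table has -0.81 (adjusted p 8.45e-28) and -0.39 (adjusted p 4.32e-07) for these, and -0.10 (adjusted p 0.34) for trex8168. Of the voltage-gated pores, SCN4A of skeletal muscle fell in trex4039, from 156.0 to 112.9. SCN11A of pain-sensing neurons rose in trex4039, from 70.55 to 102.9 (adjusted p 0.0348, authors' deposited table). SCN3B, a beta subunit that alters sodium channel gating, rose there from 573.0 to 674.2 (adjusted p 0.0215, authors' deposited table).

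The 3 listed pores of voltage-gated calcium channels fell in trex5008, where 24.6% of the listed protein-coding rows fell. CACNA1B, the N-type channel of presynaptic terminals, also fell in trex4039, with means of 244.3 in control, 224.4 in trex0108, 167.1 in trex4039, 186.8 in trex5008 and 224.5 in trex8168. CACNA1G, a low-voltage-activated T-type channel, had 341.9, 410.6, 307.6, 234.3 and 311.4, so that trex0108 was above control and trex5008 lowest. Its log2 fold change in the authors' deposited table was -0.46 in trex5008 (adjusted p 5.56e-05) and 0.23 in trex0108 (adjusted p 0.388). CACNA1I, another T-type channel, fell in trex5008 from 174.7 to 132.0 (adjusted p 0.0163, authors' deposited table).

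The 9 auxiliary calcium channel genes were more mixed, with 2 falls and 1 rise in trex4039. They gave 3 falls and 1 rise in trex5008, and 1 of each in trex8168. Of all listed protein-coding rows, 30.9% fell and 41.6% rose in trex4039, and 24.6% fell and 32.4% rose in trex5008. In trex8168 4.57% of these rows fell and 16.6% rose. CACNG8, a subunit that also accompanies AMPA-type glutamate receptors, had means of 1648 in control, 1625 in trex0108, 977.8 in trex4039, 1352 in trex5008 and 1311 in trex8168. It fell in the last 3 groups, with log2 fold changes of -0.67 (adjusted p 2.1e-13), -0.26 (adjusted p 0.0102) and -0.30 (adjusted p 0.0093) in the authors' deposited table. CACNG7, CACNG8 and CACNG6 are neighbours in that order at chr19:54411861-54515923, with gaps of 2825 and 984 bp. CACNG7 fell in trex4039 from 269.0 to 203.2, and CACNG6 had 108.3 and 80.9 (adjusted p 0.0613, authors' deposited table). CACNG5, on another chromosome, was called in none, with means of 175.8 to 217.9.

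The alpha-2-delta subunits, which bring calcium channels to the membrane and bind gabapentin, moved apart. CACNA2D1 rose in trex4039 and trex5008, with means of 809.5 in control, 949.8 in trex0108, 1067 in trex4039, 967.3 in trex5008 and 770.3 in trex8168. CACNA2D2 fell in trex5008, from 1397 to 1178. Of the beta subunits, CACNB1 fell in trex5008 from 1458 to 1233 and CACNB3 was called in none, with 1216 to 1595 over the groups. CACNB2 rose in trex8168, with means of 361.0 in control, 389.0 in trex0108, 403.2 in trex4039, 370.4 in trex5008 and 450.3 in trex8168. The authors' deposited table gives it 0.29 on the log2 scale there (adjusted p 0.0167). CACNB2 and CHRNA5 were the 2 channel genes that rose in trex8168.

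The endosomal and the plasma membrane CLC genes described here moved apart in trex4039 and trex5008. CLCN3, CLCN4 and CLCN5 encode chloride/proton exchangers of endosomes. All 3 rose in trex4039, and CLCN3 and CLCN5 rose in trex5008. In trex4039 41.6% of all listed protein-coding rows rose and 30.9% fell, and in trex5008 32.4% rose and 24.6% fell. CLCN3 had means of 5740 in control, 5935 in trex0108, 7457 in trex4039, 6620 in trex5008 and 5941 in trex8168, all target groups above control. Its log2 fold change in the authors' deposited table was 0.36 in trex4039 (adjusted p 4.03e-10) and 0.20 in trex5008 (adjusted p 0.00158). CLCN5 rose from 1235 to 1555 and 1486, and CLCN4 from 372.2 to 447.9 in trex4039. CLCN2 encodes a chloride channel of the plasma membrane and fell in both groups. Its means were 595.3 in control, 575.3 in trex0108, 412.4 in trex4039, 456.7 in trex5008 and 565.5 in trex8168. The authors' deposited table has -0.48 on the log2 scale in trex4039 (adjusted p 1.47e-07) and -0.35 in trex5008 (adjusted p 0.000239).

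Of 3 TRP channel genes, TRPM7 rose and TRPM4 fell in trex4039 and trex5008. The shares over all listed protein-coding rows were 41.6% rising and 30.9% falling in trex4039, and 32.4% and 24.6% in trex5008. TRPM7, a channel fused to a kinase that carries magnesium, had means of 2351 in control, 2403 in trex0108, 2873 in trex4039, 2837 in trex5008 and 2515 in trex8168. Its log2 fold changes in the authors' deposited table were 0.27 in trex4039 (adjusted p 0.000279) and 0.26 in trex5008 (adjusted p 0.000942). It was not called in trex0108 or trex8168. TRPM4, a calcium-activated channel for monovalent cations (chr19:49657025-49773141), had 677.9, 613.7, 411.3, 467.9 and 562.6 in the same order. It fell in 3 groups, with log2 fold changes of -0.65 in trex4039 (adjusted p 2.28e-12), -0.48 in trex5008 (adjusted p 6.27e-07) and -0.25 in trex8168 (adjusted p 0.0362) in the authors' deposited table. TRPV4, an osmotically sensitive channel, fell in trex5008 from 368.1 to 276.8, and in trex4039 it had 307.4 (adjusted p 0.0549, authors' deposited table).

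The 11 ligand-gated channel genes gave 7 falls and 2 rises in trex4039, and 5 falls and 2 rises in trex5008. They gave 1 rise in trex0108 (GRIK5) and 1 of each in trex8168. Of all listed protein-coding rows, 30.9% fell and 41.6% rose in trex4039, and 24.6% fell and 32.4% rose in trex5008. In trex0108 5.52% of these rows rose, and in trex8168 4.57% fell and 16.6% rose. Both P2X genes, whose channels open on extracellular ATP, fell in trex4039 and trex5008. P2RX2 had means of 86.37 in control, 70.85 in trex0108, 40.51 in trex4039, 52.24 in trex5008 and 83.41 in trex8168. Its log2 fold change in the authors' deposited table was -0.68 in trex4039 (adjusted p 4.37e-06) and -0.47 in trex5008 (adjusted p 0.00269). P2RX4 went from 620.1 to 491.8 and 522.1. Of the GABA-A genes, GABRD, of extrasynaptic receptors, fell in trex4039 from 184.5 to 130.7. GABRR2, of the rho type found in retina, was called in none, with 41.3 to 72.95.

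Of the NMDA receptor genes, GRIN2C fell in 3 groups, with means of 135.3 in control, 118.1 in trex0108, 92.47 in trex4039, 101.4 in trex5008 and 91.9 in trex8168. On the log2 scale the falls were -0.41 (adjusted p 0.00461), -0.31 (adjusted p 0.0376) and -0.41 (adjusted p 0.0142) in the authors' deposited table. GRIN3B fell in trex4039 from 33.34 to 17.45, and GRIN2B was called in none, with 36.18 to 56.15. Of the nicotinic genes, CHRNA5 (chr15:78857846-78900103) rose in 3 groups. Its means were 2391 in control, 2586 in trex0108, 3158 in trex4039, 3093 in trex5008 and 2813 in trex8168. All target groups were above control, and the log2 fold changes in the authors' deposited table were 0.38 in trex4039 (adjusted p 6.2e-10), 0.35 in trex5008 (adjusted p 4.27e-08) and 0.22 in trex8168 (adjusted p 0.00338). CHRNA4, the main alpha subunit of brain nicotinic receptors, fell in trex4039 and trex5008, from 159.5 to 116.6 and 115.0.

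In all, 24 channel genes were called in 1 comparison, 19 in 2, 7 in 3, 0 in all 4 and 9 in none. Every listed row has its lowest adjusted p over the 4 comparisons below 0.1, so the listing itself favours at least 1 call. The same counts were not made over all listed protein-coding rows, so these say nothing particular to channel genes. Among the 9 were CACNB3, CACNG5, CACNG6, GABRR2, GRIN2B, KCNF1, KCNH4 and KCNT1. The table gives no adjusted p for KCNN4 and KCNT1 in trex5008 and for KCNT1 in trex8168.

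The GC content of the transcript moved with the direction of these changes in trex4039 and trex5008. GC content was taken from the longest protein-coding transcript of each gene in GENCODE 29 (59 of 59 channel genes and 82.1% of the listed protein-coding rows). The channel genes had a median of 60.1% (34.7% to 70.3%), against 47.7% over the listed protein-coding rows, and 44 of the 59 lay above that value. In trex4039, the 44 GC-rich channel genes gave 24 falls and 2 rises, and the other 15 gave 12 rises and 0 falls. Over all listed protein-coding rows above the same value, 55.1% fell and 8.04% rose, and at or below it 3.90% fell and 76.9% rose. In trex5008, the GC-rich channel genes gave 28 falls and 0 rises and the others 7 rises and 0 falls, where the listed protein-coding rows fell in 46.6% and 0.869% and rose in 5.46% and 59.5%. In trex8168 the 4 falls were GC-rich (56.1% to 65.8%) and the 2 rises were not (41.2% and 41.9%), and in trex0108 3 of the 4 rises were GC-rich. Over the listed protein-coding rows in trex8168, 12.3% of the GC-rich rows rose and 7.15% fell, against 20.9% and 2.53% of the others. GC-rich rows there thus fell more often and rose less often than the others, though more of them rose than fell. In trex0108, 7.56% of the GC-rich rows and 3.96% of the others rose. The pairs that moved apart differed in GC content in the same way. CLCN3, CLCN4 and CLCN5 had 40.3%, 47.6% and 43.2%, and CLCN2 had 59.3%. TRPM7 had 39.6% and TRPM4 63.5%, CHRNA5 had 41.9% and CHRNA4 63.4%, and CACNA2D1 had 37.2% and CACNA2D2 58.1%. Across the 59 genes, Spearman's rho between GC content and the deposited log2 fold change was -0.24 in trex0108, -0.68 in trex4039, -0.66 in trex5008 and -0.30 in trex8168. It was -0.40, -0.78, -0.78 and -0.27 across the listed protein-coding rows. These are correlations across genes that share the same libraries, given as a description.

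**Figure D4:**
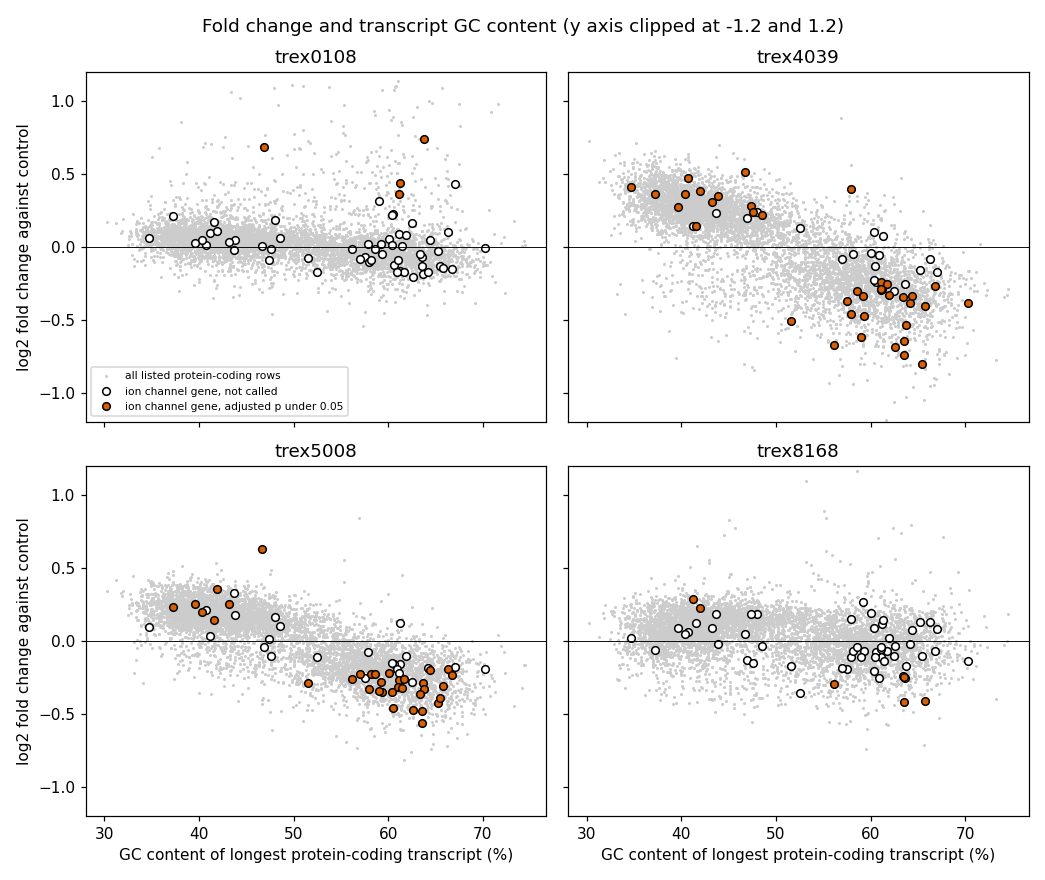
Deposited log2 fold change against control (y axis) by GC content of the longest protein-coding transcript in % (x axis), 1 panel per target group. Grey points are listed protein-coding rows, open circles are ion channel genes that were not called and filled circles those with an adjusted p under 0.05; in trex4039 and trex5008 the filled circles run from rises at low GC to falls at high GC.

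The trend of fold change on GC content was then removed across the listed protein-coding rows (lowess, span 0.3). Of the called channel genes, the sign was kept by 12 of 14 rises and 21 of 24 falls in trex4039, by 6 of 7 and 25 of 28 in trex5008, and by all 4 in trex0108 and all 6 in trex8168. Among the genes whose sign changed were TRPM7, KCNC1, KCNH2 and KCNJ12 in trex4039 and KCNG1 and KCNH2 in trex5008. At least 0.5 of the deposited size was kept by fewer: 3 rises and 8 falls in trex4039, and 1 rise and 3 falls in trex5008. In trex0108 and trex8168 all called genes kept that share. The GRIK5 value in trex0108 was 0.80 after removal, that of KCNA2 0.65, that of KCNN4 0.48 and that of KCNC1 0.41. In trex4039 the values after removal were -0.49 for KCNC4, -0.49 for CACNG8, -0.48 for SCNN1D, -0.34 for TRPM4 and -0.39 for P2RX2. KCNK12, which is GC-rich at 57.9%, stood at 0.61 there, and KCNA1 at 0.34 in trex4039 and 0.51 in trex5008. The values of CLCN3 were 0.08 in trex4039 and 0.00 in trex5008, and those of TRPM7 were -0.03 and 0.05. No test was made of these residual values, and the part of GC content in the changes was not tested.

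Many channel genes share their place with other transcripts. Another listed row overlaps 28 of the 59, and 51 have 1 within 100 kb. ACAP3, which overlaps SCNN1D, fell by 0.72 on the log2 scale in trex4039 and by 0.30 in trex5008 in the authors' deposited table. POLE, the DNA polymerase gene that overlaps P2RX2 and had a control mean of 10111, fell by 0.40 and by 0.29 in the same columns. NEK1, a kinase gene that overlaps CLCN3, rose by 0.44 and 0.24 in the authors' deposited table. These 3 overlapping genes thus moved the same way as the channel genes beside them in trex4039 and trex5008. RP5-1074L1.1, an antisense transcript that overlaps KCNC4, rose by 0.24 in trex5008, where KCNC4 fell, in the authors' deposited table. With strand treatment not known, reads of such pairs may be shared.

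Other genes of ion transport were read from lists made for these families. Over all listed protein-coding rows, 41.6% rose and 30.9% fell in trex4039, and 32.4% rose and 24.6% fell in trex5008. In trex0108 5.52% rose, and in trex8168 16.6% rose and 4.57% fell. The counts below were not tested against these shares. Of 20 listed rows of other channel families that the name pattern does not take (ANO6 has 2), 6 rose and 6 fell in trex4039, 3 rose and 8 fell in trex5008, 1 rose in trex0108, and 1 rose and 4 fell in trex8168. The pacemaker channel genes HCN2 and HCN3 fell by 0.57 and by 0.59 on the log2 scale in trex4039 in the authors' deposited table. HCN4, also listed, was not called there (log2 fold change -0.19, adjusted p 0.169, authors' deposited table). Among pumps, of 11 listed pump and exchanger genes, 5 rose and 4 fell in trex4039, and 3 rose and 3 fell in trex5008. ATP1B2, a beta subunit of the sodium pump, fell by 0.48 in trex4039 and by 0.41 in trex5008 in the authors' deposited table. The other listed beta subunits, ATP1B1 and ATP1B3, went the other way. They rose by 0.30 and 0.17 in trex4039, and each by 0.17 in trex5008. Among calcium genes, of 8 listed for stores and calmodulin signalling, 5 rose and 2 fell in trex4039. PPP3R1, the regulatory subunit of calcineurin, rose there by 0.61 (adjusted p 1.5e-28, authors' deposited table). Of 13 listed scaffold genes, 7 rose and 4 fell in trex4039. ANK1, an ankyrin that anchors membrane channels, rose in trex0108 from 406.3 to 568.5, the 1 scaffold gene called there. It fell in trex4039 (log2 fold change -0.25, adjusted p 0.0229) and trex5008 (-0.29, adjusted p 0.00626) in the authors' deposited table. REST, the repressor of many neuronal channel genes, had means of 1903 in control, 1912 in trex0108, 2067 in trex4039, 1889 in trex5008 and 1600 in trex8168. It fell by 0.24 on the log2 scale in trex8168 (adjusted p 0.00491, authors' deposited table). REST was 1 of 6 listed repressors of such genes, of which 2 rose and 1 fell in trex8168. HDAC2 and RCOR2 rose there, by 0.23 and 0.27. In trex4039 2 of the 6 rose and 2 fell, in trex5008 1 rose and 1 fell, and in trex0108 1 rose. The part of these repressors in the channel gene changes was not tested.

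Cell type markers were read from the same table. Every listed row has its lowest adjusted p over the 4 comparisons below 0.1. Whether a marker is listed therefore does not show whether the cells express it. Of 8 markers of HEK293-type cells 5 are listed, and their summed means were 13532 to 15904 over the 5 groups, lowest in trex4039. Single markers moved apart there: NEFM went from 5358 in control to 3590, PAX2 from 368.6 to 300.3 and LHX1 from 449.9 to 386.2, while CDH2 went from 4215 to 5253. AQP4, the 1 glia marker listed of 4, had 85.71 in control and 121.6 in trex4039, the highest of its group means. Of 13 cortical neuron markers only NEUROD2 is listed, with summed means of 70.48 to 122.3, lowest in trex4039 and highest in control. MYH6, a heart myosin gene and the 1 heart muscle marker listed of 5, had 50.1 in control and 1184 in trex0108. It was called in trex0108 only. MYH7, TNNT2, NPPA and ACTC1 are not listed. The part of these markers in the channel gene changes was not tested.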

How the data were processed

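PolyA RNA of 15 HEK293FT libraries was sequenced. The submitters' processing notes name STAR 2.5.1b, Bowtie2 2.2.1, DESeq2 1.14.1, DESeq, Cufflinks and bedtools, and hg19 (GRCh37) as build, without saying what each did. Group means are deposited as a signal, the mean of normalised counts over a group's libraries. Target-over-control log2 fold changes are as deposited; in every called row they are closer to 0 than the log2 ratio of the group means. Adjusted p-values are as deposited, and the authors' score column of calls matched an adjusted p below 0.1. No column holds values per library (0 used), so the count model planned for such values was not run and calls rest on the adjusted p that the authors deposited, at a threshold of 0.05. Members were found by symbol, and start positions were raised by 1. GC content came from GENCODE 29, matched by symbol, and its trend was removed by lowess (statsmodels 0.14.6; Python 3.11.15), checked on simulated data. Genes described with all 5 means were the 5 highest and 5 lowest called values per comparison with an overall mean of at least 20, genes called in 3 comparisons or in both directions, and the gene of the highest mean in each family; 52 of the 59 members are described singly and 7 enter the counts only (not reported here by name), while genes that overlap or neighbour a member were picked with their values in view. The members, gene lists and tests were chosen with earlier results of these data known. The alternatives tried were other thresholds, a filter on low means, pore-forming genes only, log2 ratios of means with pseudocounts of 1 and 10, centring, and removal of the GC trend.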

Additional observations from a re-analysis of the deposited data

How the results depend on the processing

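At an adjusted p under 0.01, rises in trex4039 went from 14 to 8, falls in trex5008 from 28 to 16, and in trex8168 1 rise and 2 falls were left of 2 and 4; at 0.1, trex8168 had 4 rises and 7 falls. With pore-forming genes only, trex8168 had 1 rise. The median in trex0108, 0.0078, became -0.0012 with pore-forming genes only, -0.0065 with the GC trend removed and -0.012 centred on all rows. The median in trex4039, -0.23, became 0.0265 with the GC trend removed. The median in trex5008, -0.196, became -0.041 with the GC trend removed and -0.25 as a log2 ratio of means with a pseudocount of 1. Removing the GC trend changed the sign of 5 of 38 called genes in trex4039, 4 of 35 in trex5008 and none in the other groups. Among the 47 called values of genes that the naming rule takes and the text describes it changed 3, all in trex4039: KCNC1 (0.033), KCNJ12 (0.0265) and TRPM7 (-0.026). It moved another 34, and centring moved none of the 47. The cause was not tested. The filter on a mean of 50 moved no count by more than 1.5 times. The rule on keeping 0.5 of the size was chosen after seeing the data. No paired analysis was possible because the table holds group means only; for the same reason no library could be left out, and depth limits are unknown.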
